A study of Sus scrofa and Rattus norvegicus with 8 samples.

Results

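Genes of glucose uptake, glycolysis and glycogen turnover were examined in the white fat of pigs. The set held 10 genes, chosen by symbol: the glucose transporters SLC2A4 and SLC2A1, the hexokinases HK1 and HK2, the regulatory enzymes PFKFB3 and PFKFB1, and the glycogen genes GYS1, GBE1, PYGL and PPP1R3C. Of these, 9 had a value among the 25880 Ensembl gene IDs of the pig table, of which 14844 carried the symbol of a nuclear gene. SLC2A1, which encodes the transporter GLUT1, has an ID in the name table that is not among the IDs of the pig table, so its level was not analysed here.

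The series profiled subcutaneous fat by RNA-seq in pig and rat, as part of a comparison of the tissue between mammals. The pig group was made of 6 libraries from the upper layer of backfat of adult female Bama pigs, 2 years old, with 1 library per animal by the study's methods. No treatment, genotype or diet was contrasted among them, and the animals were unfed the night before slaughter, so all values are those of fat after a night without feed. The 2 libraries of pooled inguinal fat from SD rats, 32 weeks old, were not used, because the rat IDs could not be paired with symbols. Values are TPM, a transcript abundance corrected for length and scaled to the same total in each library, so levels of different genes can be compared. TPM keep no read counts, so the depth is unknown and no counting error can be given.

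Adipocytes take up glucose through GLUT4, the insulin-responsive transporter that SLC2A4 encodes and that moves from internal vesicles to the cell surface. Hexokinases trap the sugar as glucose 6-phosphate, which enters glycolysis or is stored as glycogen. The PFKFB enzymes set the amount of fructose 2,6-bisphosphate, a strong activator of phosphofructokinase. Fat holds little glycogen compared with liver or muscle, but makes and breaks it down through synthase, branching enzyme and phosphorylase, with PPP1R3 proteins bringing protein phosphatase 1 to the glycogen particle.

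Replicates 4 and 5 stood apart from the other libraries before any gene of the set was considered. Named nuclear genes held 3.34% of the TPM in replicate 4 and 4.73% in replicate 5, against 24.1% to 26.3% in the other 4. As deposited, 4661 of these genes were over 1 TPM in replicate 4 and 5556 in replicate 5, against 10444 to 10817 in the other 4. Each library was therefore also rescaled so that its named nuclear genes sum to 1000000, and such values are called rescaled TPM. The rescaling multiplied every gene by 29.9 in replicate 4, by 21.1 in replicate 5 and by 3.80 to 4.15 in the others. The adipose label was checked on 8 adipocyte markers. The 7 with a value were over 1 TPM in every library, with a median of their means of 990 rescaled TPM, against 16.7 for all named nuclear genes. Of 10 skeletal muscle markers only 4 had a value, and they summed to 2.00 to 14.1 rescaled TPM.

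The stretches directly upstream of 3 genes of the set are shown because the results below turn on these genes: HK1 and HK2 divided the first step of glycolysis unequally between libraries, and PPP1R3C changed its order with GYS1 in replicates 4 and 5. Each is the 250 bases before the RefSeq start of the gene on Sscrofa11.1, read 5′ to 3′ on the strand of the gene, and is not a measured promoter. Capitals mark ACGTG (the core of the hypoxia response element), GGGCGG (the GC box) and TATAAA (the TATA box), each searched on both strands, so that the reverse complement of each is in capitals too.
HK1 (chr14:72383078-72383327, plus strand): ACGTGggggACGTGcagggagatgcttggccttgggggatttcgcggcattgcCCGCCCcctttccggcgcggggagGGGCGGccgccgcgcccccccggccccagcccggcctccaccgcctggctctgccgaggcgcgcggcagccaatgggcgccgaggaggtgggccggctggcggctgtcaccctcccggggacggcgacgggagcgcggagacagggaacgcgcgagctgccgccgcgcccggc
HK2 (chr3:68231188-68231437, minus strand): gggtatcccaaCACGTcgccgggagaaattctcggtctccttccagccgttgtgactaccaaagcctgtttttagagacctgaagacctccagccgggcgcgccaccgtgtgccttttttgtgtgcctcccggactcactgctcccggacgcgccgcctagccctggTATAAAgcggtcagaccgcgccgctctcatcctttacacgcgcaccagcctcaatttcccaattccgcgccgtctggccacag
PPP1R3C (chr14:103278758-103279007, minus strand): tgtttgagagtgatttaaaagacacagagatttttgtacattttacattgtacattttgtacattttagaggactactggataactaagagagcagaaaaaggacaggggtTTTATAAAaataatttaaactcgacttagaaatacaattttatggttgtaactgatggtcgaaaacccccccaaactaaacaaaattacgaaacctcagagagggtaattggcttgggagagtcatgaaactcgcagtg

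In these windows HK1 held ACGTG and GGGCGG 2 times each, and HK2 held ACGTG and TATAAA once each. PPP1R3C held TATAAA on both strands, as overlapping matches in a single run of letters, and no GC box. Over the 10 genes, GGGCGG was found in the windows of 6, ACGTG in those of 3 (SLC2A1, HK1 and HK2) and TATAAA in those of 2. Among 19531 gene windows of the same length the shares were 45.9%, 18.7% and 9.76%. The E-box CACGTG, which contains ACGTG, was in none of the 10 and in 6.40% of all windows. These matches describe letters only, and binding was not measured here.

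All 9 genes with a value were over 0.1 TPM, the detection threshold of the study, in all 6 libraries, as were 67.2% of the 14844 named nuclear genes. As deposited, each was lower in replicates 4 and 5 than in any other library, which held for 99.1% of the 8866 named nuclear genes with a mean of at least 10 rescaled TPM and so says nothing particular of glucose genes. The mean rescaled levels ran from GBE1 through PYGL, HK1, PFKFB3, HK2, GYS1, SLC2A4 and PPP1R3C to PFKFB1. GBE1 exceeded PYGL, and PYGL exceeded HK1, in 6 of 6 libraries. Below HK1 the neighbours could not be told apart beyond their spread: HK1 was above PFKFB3 in 5 libraries of 6, PFKFB3 above HK2 in 4, HK2 above GYS1 in 3, GYS1 above SLC2A4 in 4, SLC2A4 above PPP1R3C in 4 and PPP1R3C above PFKFB1 in 2.

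**Figure D1:**
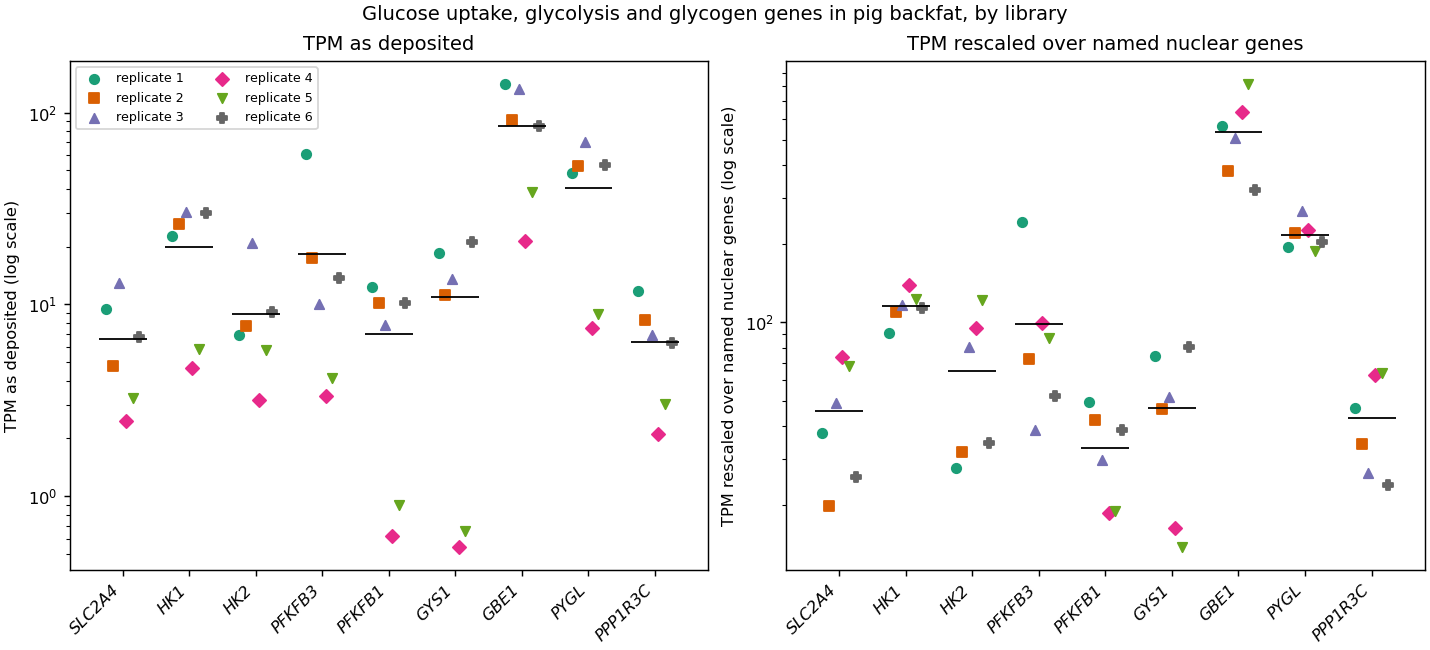
TPM of the 9 genes with a value, as deposited (left) and rescaled over the named nuclear genes (right), both on log axes. Each symbol is 1 library and each black line the mean of 6. Replicates 4 and 5 lie lowest for every gene as deposited, while after rescaling they lie highest for SLC2A4, HK1, HK2, GBE1 and PPP1R3C and lowest for PFKFB1 and GYS1.

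Glucose transport was considered first. SLC2A4 (ENSSSCG00000023915, chr12:52628746-52634965, plus strand, 11 exons in the longest RefSeq transcript) had 9.46, 4.77, 12.9, 2.46, 3.23 and 6.77 TPM in replicates 1 to 6. Rescaled, the values were 37.9, 19.8, 49.1, 73.6, 68.3 and 25.7, with a mean of 45.7 ± 22.1 (SD, n = 6). Replicates 4 and 5 were thus the lowest libraries as deposited and the highest after rescaling, with replicate 2 then the lowest. The mean lay above those of 72.5% of named nuclear genes.

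Among 9 transporters of the SLC2A family with a value, SLC2A4 held 35.3% ± 9.49 (SD, n = 6) of their summed TPM, from 23.5% in replicate 2 to 47.4% in replicate 4. SLC2A13, the proton-coupled inositol transporter, followed with 20.5%, and SLC2A5, the fructose transporter, with 19.3% ± 15.1 (SD, n = 6). SLC2A5 ranged from 6.82% to 47.4%, and in replicate 5 it exceeded SLC2A4, at 32.1%. These shares leave out SLC2A1 and SLC2A3, the latter without an ID in the name table, so they are not shares of all transport. SLC2A2, the GLUT2 of liver and islets, was low, at 3.89 ± 0.296 rescaled TPM (SD, n = 6).

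Genes for the proteins that hold and release GLUT4 vesicles were detected. All 8 genes of this list were over 0.1 TPM in every library, as were 67.2% of named nuclear genes. The median of the means of the 8 was 46.3 rescaled TPM. TBC1D4, the Rab GTPase-activating protein AS160 that insulin signalling inhibits, was the highest at 388 ± 81.1 rescaled TPM (SD, n = 6), and LNPEP, the aminopeptidase IRAP that travels in the vesicles, had 279 ± 29.3 (SD, n = 6). STX4, the plasma membrane syntaxin at which the vesicles fuse, was the lowest at 24.5 ± 3.88 (SD, n = 6). VAMP2, the vesicle SNARE, had 67.2, 60.5, 80.1, 9.10, 7.92 and 60.9 rescaled TPM in replicates 1 to 6. After rescaling, 5 of the 8 genes, VAMP2 among them, were lower in replicates 4 and 5 than in any other library. This held for 48.6% of the 8866 genes. TBC1D4 and RAB10 were higher in both, as SLC2A4 was, against 12.3% of the 8866 genes. The list thus did not move as 1 group in these libraries.

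Hexokinases formed the next step. HK1 (ENSSSCG00000010253, chr14:72383328-72460927, plus strand, 19 exons), the broadly expressed isoform, had 22.8, 26.3, 30.4, 4.66, 5.82 and 30.0 TPM in replicates 1 to 6. Rescaled, it had 91.4, 109, 116, 139, 123 and 114, with a mean of 115 ± 15.9 (SD, n = 6). The rescaled values were close to each other, with an SD of 0.137 times the mean (a ratio called CV from here on) against 0.588 as deposited.

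HK2 (ENSSSCG00000008261, chr3:68155656-68231187, minus strand, 18 exons), the isoform of insulin-responsive tissues, had 6.94, 7.72, 21.0, 3.19, 5.76 and 9.12 TPM. Its rescaled values were 27.8, 32.0, 80.2, 95.5, 122 and 34.6, with a mean of 65.3 ± 39.5 (SD, n = 6). HK2 thus varied more than HK1 between libraries, with high values in replicates 3, 4 and 5 and low values in replicates 1, 2 and 6 after rescaling. Its CV of 0.604 was above that of 93.7% of the 8866 genes, while that of HK1 was above 12.5% of them.

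The choice between isoforms was measured by the log2 ratio of TPM + 0.1 within each library, from which a factor common to a library cancels apart from the pseudocount. In all, 16 pairs were planned and 13 had values, the other 3 needing SLC2A1 or SLC2A3. A two-sided exact sign-flip permutation test over the 6 libraries was used, whose smallest p is 0.03125, with Benjamini-Hochberg adjustment over the 13 pairs. HK1 was above HK2 in 6 of 6 libraries, by a mean log2 ratio of 1.04 ± 0.77 (SD, n = 6; exact permutation p = 0.03125, adjusted 0.0339). The fold in TPM was 3.29 to 3.41 in replicates 1, 2 and 6 and 1.45, 1.46 and 1.01 in replicates 3, 4 and 5, so in replicate 5 both isoforms were at the same level.

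Of the summed TPM of HK1, HK2, HK3 and HKDC1, HK1 held 60.8% ± 8.17 and HK2 31.2% ± 12.3 (SD, n = 6). HK3, the leukocyte isoform, held 6.23% and HKDC1 1.83%. HK1 was above HK3 by 3.34 ± 0.62 on the log2 scale (SD, n = 6; exact permutation p = 0.03125, adjusted 0.0339). HK2 ranged from 19.3% to 47.8% of the sum.

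PFKFB3 (ENSSSCG00000011133, chr10:64776315-64859118, minus strand, 14 exons), an isoform with high kinase activity that is induced by hypoxia and insulin, had 60.6, 17.5, 10.1, 3.33, 4.13 and 13.8 TPM in replicates 1 to 6. Rescaled, these were 242, 72.7, 38.6, 99.8, 87.2 and 52.3, with a mean of 98.9 ± 73.8 (SD, n = 6). Replicate 1 stood far above all others on both scales. The CV of 0.747 was above that of 98.2% of the 8866 genes, and without replicate 1 it was 0.356.

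In replicate 1 the 10 glucose-responsive and hypoxia genes with a value summed to 2880 rescaled TPM, against 2017 to 2583 in the others. TXNIP, which glucose induces, made up 1917 of this sum, and without it replicate 1 had 963 and replicate 6 had 967, so the list as a whole was not highest in replicate 1. VEGFA, the angiogenic growth factor, was also highest there, at 83.7 rescaled TPM against 40.9 to 72.0. HIF1A had 242 and ADM 63.0 in replicate 1, both within or below the range of the other libraries. The part of these genes in the PFKFB3 value was not tested.

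PFKFB1 (ENSSSCG00000024814, chrX:47771751-47859079, minus strand, 14 exons), the isoform of liver and muscle, had 12.3, 10.2, 7.80, 0.622, 0.897 and 10.2 TPM. Rescaled, it had 49.4, 42.2, 29.8, 18.6, 19.0 and 38.6, with a mean of 32.9 ± 12.6 (SD, n = 6). Replicates 4 and 5 were its lowest libraries on both scales. PFKFB1 has 9 annotated starts over 11 RefSeq transcripts and PFKFB3 has 4 over 6, and values per gene do not show which of them were used.

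PFKFB3 exceeded PFKFB1 in 6 of 6 libraries, by a log2 ratio of 1.37 ± 0.93 (SD, n = 6; exact permutation p = 0.03125, adjusted 0.0339). The libraries fell apart in size, with folds of 4.91, 5.36 and 4.60 in replicates 1, 4 and 5 and 1.72, 1.29 and 1.35 in replicates 2, 3 and 6. PFKFB3 held 62.9% ± 15.7 and PFKFB1 24.6% ± 10.1 of the PFKFB sum (SD, n = 6). PFKFB2 and PFKFB4 held 6.42% and 6.08%, and PFKFB3 exceeded them by 3.21 ± 1.04 and 3.25 ± 0.96 on the log2 scale (SD, n = 6; exact permutation p = 0.03125, adjusted 0.0339 for both).

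**Figure D2:**
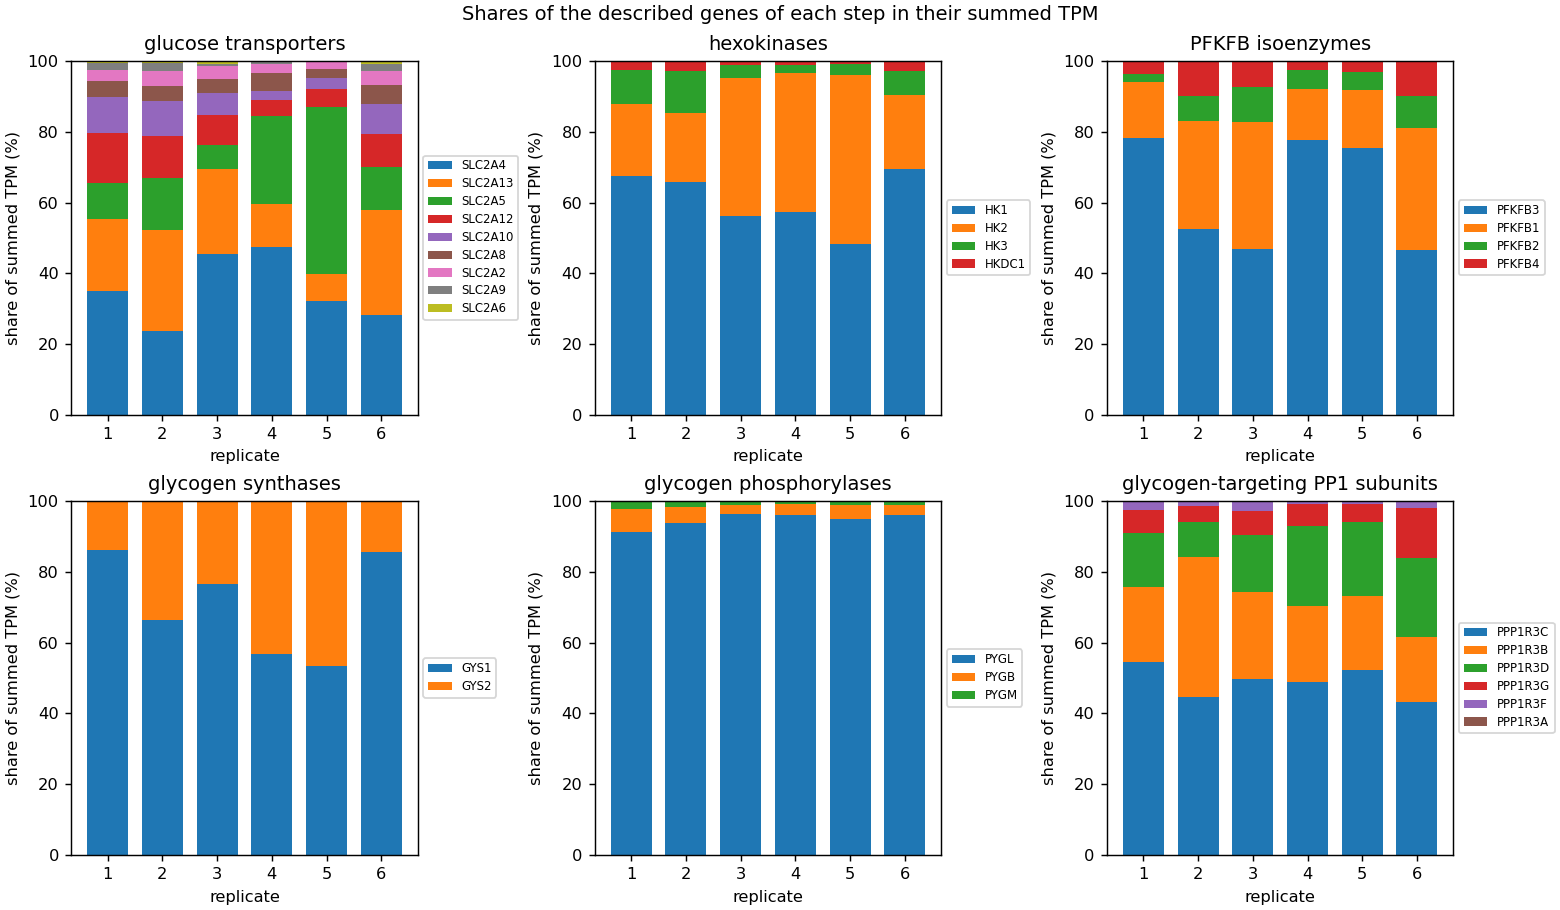
Share of each gene in the summed TPM of the genes shown in its panel, in percent, for each of the 6 pig libraries. HK2 widened to 47.8% in replicate 5, PFKFB3 ranged from 46.7% to 78.1%, and PYGL held more than 90% of the phosphorylase sum in all libraries. SLC2A1 and SLC2A3 are left out of the transporter panel.

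Glycogen synthesis was then described. GYS1 (ENSSSCG00000003154, chr6:54234600-54250211, minus strand, 16 exons), the glycogen synthase found outside liver, had 18.6, 11.2, 13.5, 0.544, 0.655 and 21.1 TPM. Rescaled, it had 74.4, 46.5, 51.6, 16.3, 13.8 and 80.3, with a mean of 47.2 ± 28.0 (SD, n = 6). Both scales put replicates 4 and 5 below all others, and without these 2 libraries the CV of the rescaled values was 0.263 in place of 0.594.

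GYS2, the liver synthase, had 14.9 ± 4.50 rescaled TPM (SD, n = 6). GYS1 exceeded it in 6 of 6 libraries, by 1.38 ± 1.06 on the log2 scale (SD, n = 6; exact permutation p = 0.03125, adjusted 0.0339). The TPM folds were 6.20 and 5.93 in replicates 1 and 6 but 1.32 and 1.14 in replicates 4 and 5, where GYS1 held 56.9% and 53.3% of the synthase sum.

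GBE1 (ENSSSCG00000012000, chr13:173634401-173909646, plus strand, 16 exons), the branching enzyme, was the highest gene of the set. It had 140.4, 91.3, 133, 21.3, 38.6 and 84.8 TPM in replicates 1 to 6 and 562, 379, 508, 637, 815 and 322 after rescaling, with a mean of 537 ± 179 (SD, n = 6). This mean lay above those of 98.5% of named nuclear genes. Replicates 4 and 5 were the lowest as deposited and the highest after rescaling.

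GBE1 exceeded GYS1 in 6 of 6 libraries, by 3.66 ± 1.41 on the log2 scale (SD, n = 6; exact permutation p = 0.03125, adjusted 0.0339). The fold ran from 4.01 in replicate 6 to 58.9 in replicate 5. In replicates 4 and 5 the folds of 39.1 and 58.9 rest on low GYS1 values, 0.544 and 0.655 TPM. Without these 2 libraries the mean log2 ratio was 2.80. GYG1, the glycogenin that primes the particle, had 42.3 ± 7.33 rescaled TPM, and UGP2, which makes UDP-glucose, had 247 ± 46.2 (SD, n = 6). Of the 6 genes of this list, 5 had a value and all 5 were over 0.1 TPM in every library, as were 67.2% of named nuclear genes.

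Glycogen breakdown was led by PYGL (ENSSSCG00000005024, chr1:180645849-180704124, minus strand, 21 exons), the phosphorylase first known from liver. It had 48.7, 52.7, 70.1, 7.54, 8.90 and 53.5 TPM in replicates 1 to 6 and 195, 219, 268, 226, 188 and 203 after rescaling, with a mean of 216 ± 28.9 (SD, n = 6). PYGL was even between libraries once rescaled, with a CV of 0.133 that was above that of only 11.5% of the 8866 genes. Its mean lay above those of 95.2% of named nuclear genes.

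PYGL held 94.8% ± 1.93 (SD, n = 6) of the summed phosphorylase TPM. It exceeded PYGB, the brain isoform, by 4.47 ± 0.50, and PYGM, the muscle isoform, by 5.79 ± 0.41 on the log2 scale (SD, n = 6; exact permutation p = 0.03125, adjusted 0.0339 for both). Phosphorylase also exceeded synthase: GYS1 was below PYGL in 6 of 6 libraries, with a log2 ratio of -2.41 ± 0.99 (SD, n = 6; exact permutation p = 0.03125, adjusted 0.0339). Transcript levels are not enzyme activities, which phosphorylation sets for both enzymes.

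Of the 10 breakdown genes, 9 were over 0.1 TPM in all libraries, against 67.2% of named nuclear genes. The median of the means of the 10 was 20.4 rescaled TPM. PHKB, the beta subunit of phosphorylase kinase, had 156 ± 33.8 rescaled TPM (SD, n = 6). The catalytic subunits PHKG2 and PHKG1 were lower, at 12.4 ± 3.58 and 8.62 ± 3.48 (SD, n = 6). PYGM was the lowest of the list, at 2.86 ± 1.11 (SD, n = 6).

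PPP1R3C (ENSSSCG00000010464, chr14:103273401-103278757, minus strand, 2 exons) encodes PTG, the subunit that brings phosphatase 1 to glycogen, where the phosphatase activates synthase and inactivates phosphorylase. It had 11.7, 8.26, 6.93, 2.10, 3.03 and 6.27 TPM, and 46.9, 34.3, 26.5, 62.9, 63.99 and 23.8 after rescaling, with a mean of 43.1 ± 17.7 (SD, n = 6). Replicates 4 and 5 were again the lowest as deposited and the highest after rescaling. Among 6 glycogen-targeting subunits with a value, PPP1R3C held 48.8% ± 4.34 (SD, n = 6) of the sum, with an SD smaller than that of any other leading share of the set except PYGL.

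PPP1R3B, the subunit of liver and muscle, held 24.5% and PPP1R3D 17.9% of that sum. PPP1R3C exceeded both in 6 of 6 libraries, by 1.01 ± 0.43 and 1.45 ± 0.46 on the log2 scale (SD, n = 6; exact permutation p = 0.03125, adjusted 0.0339 for both). In replicate 2 PPP1R3C and PPP1R3B were close, with a fold of 1.12. PPP1R3A, the muscle subunit, was listed at 0 in 3 libraries and did not exceed 0.0749 TPM.

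PPP1R3C and GYS1 were the pair whose order turned. Their log2 ratio was -0.66, -0.44, -0.95 and -1.74 in replicates 1, 2, 3 and 6 but 1.77 and 2.05 in replicates 4 and 5. The mean of 0.0061 ± 1.54 (SD, n = 6) could not be told from 0 (exact permutation p = 0.969, adjusted 0.969), and without replicates 4 and 5 it was -0.95. It was the single pair of the 13 that did not pass the adjusted threshold.

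**Figure D3:**
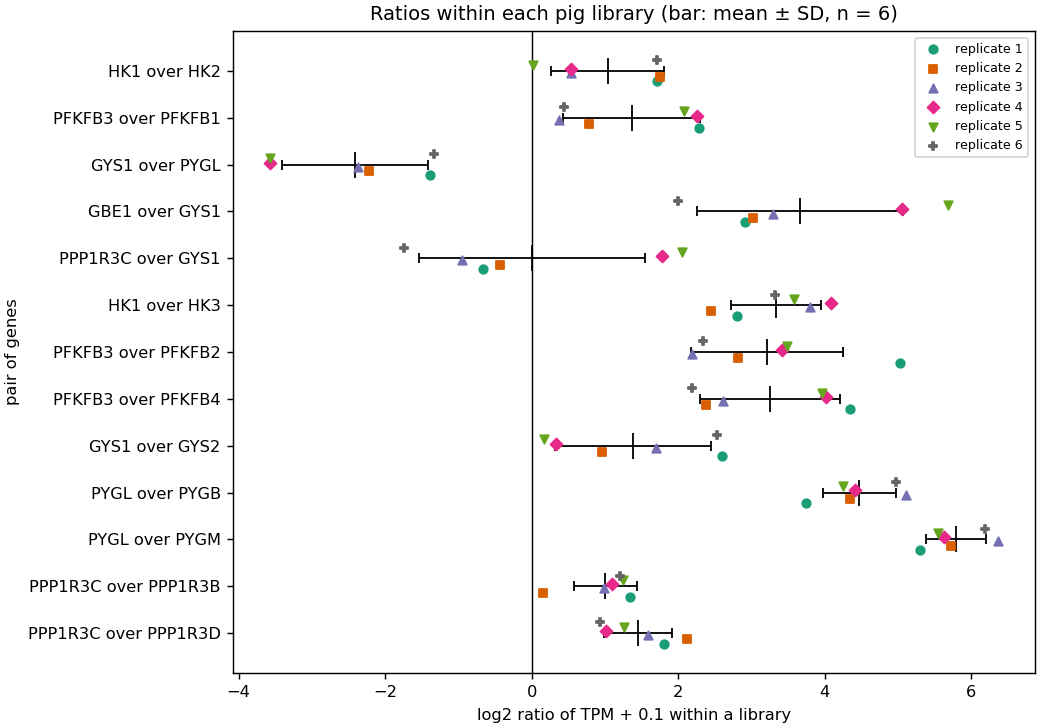
Log2 ratio of TPM + 0.1 within each pig library for 13 pairs of genes. Each symbol is 1 library, and the bars give the mean ± SD of 6. The symbols of 12 pairs lie on 1 side of 0, while PPP1R3C over GYS1 lies above 0 only in replicates 4 and 5.

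The position of replicates 4 and 5 was compared over the set. After rescaling, 5 of 9 genes (SLC2A4, HK1, HK2, GBE1 and PPP1R3C) were higher in both than in any other library, against 12.3% of the 8866 genes, and 2 (PFKFB1 and GYS1) were lower in both, against 48.6%. With the median of each library set equal instead, the same 5 and the same 2 genes were found, against 37.2% and 22.7% of all genes, and with quantile normalization again, against 29.3% and 27%. The split of the 9 genes thus held under these 3 scalings, all over named nuclear genes, while the background it is read against moved. It did not hold with all IDs rescaled except mitochondrially encoded and ribosomal protein genes. Replicate 4 was then the lowest library of SLC2A4, HK1, HK2, GBE1 and PPP1R3C. As deposited, none of the 9 was higher in replicates 4 and 5.

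A shift of all genes has to be read beside these values. Over 12130 genes with a mean of at least 1 rescaled TPM, the rescaled level in replicates 4 and 5 differed from that in the other 4 by a median log2 of -0.55. The 11133 of them with a known GC content were split into 5 equal groups of rising GC content. In these groups the median was -0.32, -0.46, -0.61, -0.78 and -0.69. HK2 (1.31), SLC2A4 (1.10), PPP1R3C (0.95) and GBE1 (0.71) lay above 98.2%, 97.8%, 97.3% and 95.6% of the genes in their own GC group. HK1 (0.29), PYGL (-0.10) and PFKFB3 (-0.12) lay above 87.0%, 74.0% and 74.0%. GYS1 (-2.06) lay above 9.34% and PFKFB1 (-1.09) above 22.4%, so these 2 were lower than most genes of like GC content.

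**Figure D4:**
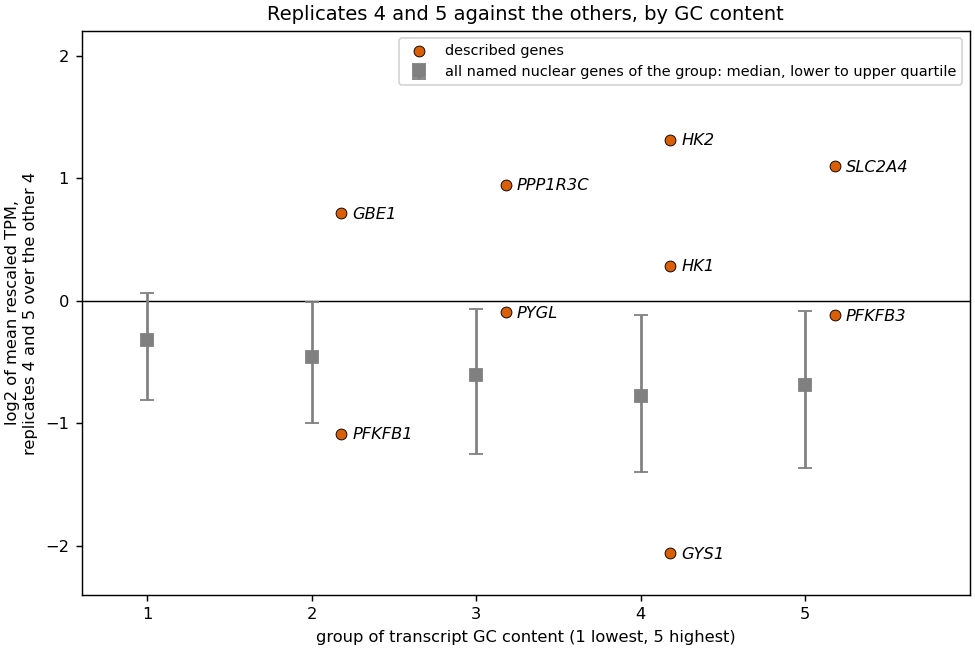
Log2 of the mean rescaled TPM in replicates 4 and 5 over that in the other 4 libraries, against the group of transcript GC content. Grey squares and bars give the median and quartiles of all genes in a group, orange points the 9 described genes. HK2, SLC2A4, PPP1R3C and GBE1 lie above 0.7, and GYS1 lies at -2.06, below the quartiles of its group.

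After rescaling over named nuclear genes, markers of adipocytes and of other cell types also moved with replicates 4 and 5. Of the 7 adipocyte markers with a value, 3 were lower in both than in any other library, and 1 was higher in both. In replicates 4 and 5 the 6 endothelial markers with a value summed to 647 and 782 rescaled TPM, against 1100 to 1412 in the others. The 8 macrophage markers summed to 523 and 343, against 644 to 836. The 6 smooth muscle markers summed to 562 and 658, against 706 to 1108, and the 4 Schwann cell markers to 28.0 and 19.9, against 44.1 to 49.9. Both libraries were the lowest for 5 of 6 endothelial, 5 of 8 macrophage, 2 of 6 smooth muscle and 3 of 4 Schwann cell markers. Rescaled levels were lower in both for 48.6% of the 8866 genes, so these sums have to be read beside that general shift. The median over all named nuclear genes was 11.7 and 11.2 rescaled TPM in replicates 4 and 5, against 16.1 to 19.3 in the others. With median-centring, 22.7% of the 8866 genes were lower in both. The marker sums are given for the rescaled values only, and their order between libraries may depend on that scaling. The 8 hepatocyte markers with a value summed to 1456 and 1696, above the 207 to 1292 of the others, but only 2 of the 8 were higher in both libraries. APOA2 was listed at 0 in replicate 6. The 5 neutrophil markers with a value summed to 106 and 314, against 45.1 to 70.0, but only S100A8 and S100A12 were higher in both libraries, S100A8 alone giving 83.0 and 263. MPO was listed at 0 in replicates 4 and 6. In bulk tissue, fewer cells of a type and less RNA per cell cannot be told apart, and the part of these cells in the levels above was not tested.

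Across the set, rescaling lowered the CV of 9 of 9 genes, as it did for 98.1% of the 8866 genes. The median CV of the set was 0.412 after rescaling, from 0.133 for PYGL to 0.747 for PFKFB3, and 0.282 over the 8866 genes. A single library lay far from the other 5 in 2 genes as deposited (HK2 and PFKFB3), against 0.722% of genes, and in 1 gene after rescaling (PFKFB3), against 4.38%. HK1 and PYGL were the evenest genes after rescaling. With median-centring PFKFB1 was the evenest, with a CV of 0.198 against 0.254 for PYGL and 0.362 for HK1. Each of HK1 and PYGL is the leading isoform of its step, but so are PFKFB3 and GYS1, with rescaled CVs of 0.747 and 0.594.

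**Figure D5:**
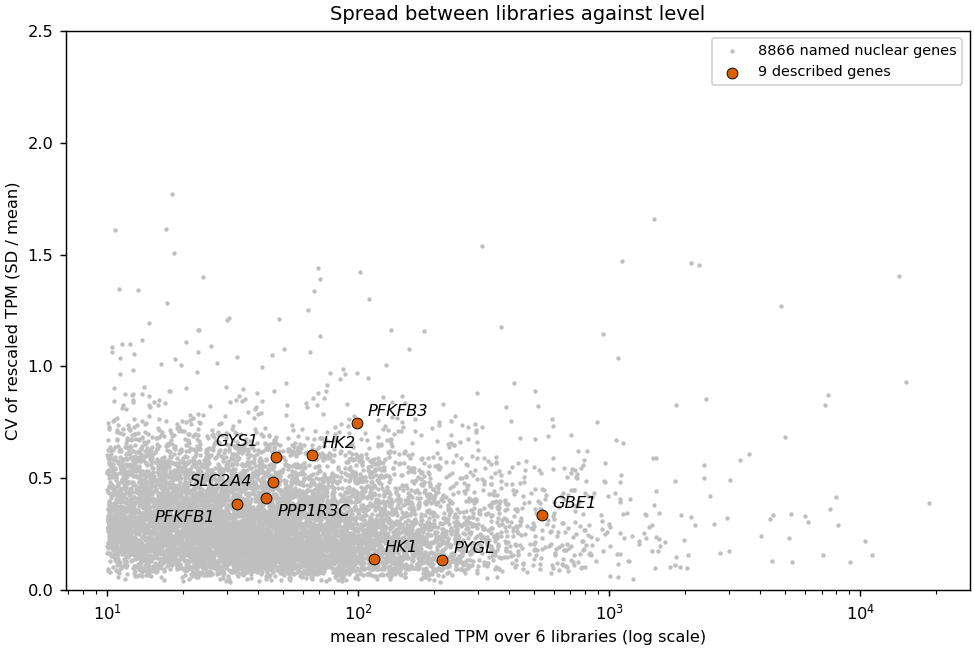
CV of rescaled TPM over 6 libraries against the mean rescaled TPM (log axis). Grey points are the 8866 named nuclear genes with a mean of at least 10 rescaled TPM and orange points the 9 described genes, with HK1 and PYGL at the bottom near 0.13 and PFKFB3 at the top at 0.747.

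The rest of the glycolytic chain gives the setting for these genes. Of 19 glycolytic enzyme genes, 14 were over 0.1 TPM in all libraries, against 67.2% of named nuclear genes. The lowest, the entry named LDHB, had a mean of 0.135 rescaled TPM and was listed at 0 in replicates 1, 2 and 6. It has 1 exon in RefSeq, and whether it is the working gene for that enzyme subunit was not tested. The median of the means of the 19 was 180 rescaled TPM, against 16.7 for all named nuclear genes. GAPDH was the highest at 1473 ± 427 rescaled TPM (SD, n = 6). Among phosphofructokinases, the liver-type PFKL held 49.7%, PFKP 36.1% and the muscle-type PFKM 14.2% of the sum. The aldolases ALDOA and ALDOC held 52.2% and 46.9% of theirs, and ENO1 98.3% of the enolase sum. LDHA, a lactate dehydrogenase subunit, had 221 ± 57.3 rescaled TPM (SD, n = 6).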

How the data were processed

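The authors quantified the pig libraries with kallisto 0.43.0 and deposited TPM per gene in a single table. Sscrofa11.1 is the build of the study, and the study names an Ensembl release of its annotation for other analyses and reference genes without tying it to this table. rRNA was depleted before stranded libraries were made. The files show no depth, so precision rests on the spread over 6 libraries. Symbols came from a name table that named 57.4% of the IDs. The genes and lists were chosen with earlier results of these data known, and the text names the 10 genes, genes of the same step or family, and the highest and lowest of each list. LNPEP, VAMP2, RAB10, VEGFA, HIF1A, ADM, S100A8, S100A12, MPO and APOA2 were named after their values were seen. The shares, the GC groups, the upstream windows and the CV without replicates 4 and 5 were added after the data were seen.

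Levels were described as deposited and after rescaling the named nuclear genes of each library to 1000000. Ratios within a library used a pseudocount of 0.1 TPM and an exact sign-flip test with all 64 sign flips (SciPy 1.17.1), which was tested on simulated data. A library was called far from the others by Dixon's ratio at the 95% level. The background was all named nuclear genes with a mean of at least 10 rescaled TPM. GC content was that of the longest RefSeq transcript, over genes whose mean was at least 1 rescaled TPM, of which 91.8% had a value. Upstream windows and coordinates are from RefSeq on Sscrofa11.1, matched by symbol. Python 3.11.15, pandas 2.3.3, pysam 0.24.0 and matplotlib 3.10.9 were used. The rat table was not used. No gene of the set had values equal to those of another ID. Some genes of the lists are not reported here.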

Additional observations from a re-analysis of the deposited data

Results flagged for a closer look

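In 31 sets of 6 values examined, 4 had a single library far from the other 5, and chance marks about 1 set in 20. PFKFB3 was far higher in replicate 1 than in the others, both as deposited (60.6 TPM) and rescaled (242 rescaled TPM). Replicate 1 was the highest library of PFKFB3 under all 5 scalings, but it was not far from the rest after median-centring or quantile normalization. HK2 in replicate 3 was far higher as deposited, at 21.0 TPM, and after rescaling its highest library was replicate 5. The log2 ratio of PPP1R3C over PPP1R3B in replicate 2, 0.16, lay far below those of the other 5 libraries, from 0.99 to 1.34.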

How the results depend on the processing

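Of 13 ratios, 12 kept their direction and side of the threshold with a pseudocount of 1 or 0.01 TPM, with rescaled values and with quantile normalization. They also kept their direction with any 1 library, or replicates 4 and 5 together, left out. The exception was PPP1R3C over GYS1, whose mean log2 ratio was -0.20 with a pseudocount of 1 TPM, -0.022 with quantile normalization, and from -0.40 to 0.35 with 1 library left out, or -0.95 without replicates 4 and 5. It did not pass the threshold in any tested setting, and the cause was not tested. With 5 libraries the exact test cannot go below 0.0625, so these fits were values with no test. Rescaling moved the mean of 9 of 9 genes by more than 1 SD, and median-centring that of 1 (HK2), to 15.3 TPM. The CV of 5 of 9 genes moved as deposited and of 5 with median-centring. Detection at over 1 TPM lowered the counts of 7 of 10 lists by over 1.5 times. No paired analysis was possible because the replicate numbers that pig and rat share pair no animals and the rat table was not compared. TPM hold no read counts, so the precision of low genes such as PPP1R3A is unknown.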
